A study of Homo sapiens with 8 samples.

Results

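The genes described here were 10 cyclins and cyclin-dependent kinases (CDKs) that drive the cell through its cycle, CCNA2, CCNB1, CCNB2, CCND1, CCND2, CCND3, CCNE1, CCNE2, CDK1 and CDK2, chosen by symbol from the 26364 genes of the count table. LN229 is an established human glioblastoma cell line. It had been stably transfected with pcDNA3.1 plasmids, selected in G418, and carried Survivin fused to GFP. In Surv-GFP, the nuclear export signal (NES) was functional, which leaves the protein predominantly cytoplasmic in untreated cells. In SurvNESmut-GFP, the NES was mutated, which traps the protein in the nucleus. Each form was represented by 1 clone, so that an effect of the NES mutation and a property of the clone cannot be told apart, and every cell still carried its own BIRC5 gene. RNA was sequenced from untreated cells of each clone and from cells exposed to 50 µM temozolomide (TMZ), an alkylating drug, for 48 h, which gave 4 groups of 2 libraries, named a and b. The study describes its transcriptome replicates as biologically independent and as run in technical duplicate, but the labels do not say which kind the letters mark. The p-values weigh a difference against the spread between these libraries, part or all of which may be technical. This spread was small, with a common coefficient of variation of 4.09%. If it is technical, the p-values carry no variation between cultures.

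Cyclins are the regulatory partners without which a CDK is inactive. D-type cyclins act with CDK4 and CDK6 in G1 and link growth signals to the retinoblastoma protein, E-type cyclins act with CDK2 at the entry into S phase, cyclin A2 acts with CDK2 in S phase and with CDK1 in G2, and the B-type cyclins act with CDK1 to start mitosis. Genes for cyclins A2, B1 and B2 and for CDK1 are transcribed mainly in S, G2 and M phase and are repressed by p53 through p21 (CDKN1A) and the DREAM complex, whereas D-type cyclins follow mitogenic signals. Since whole cultures were sequenced, fewer cells in a phase and less RNA per cell cannot be told apart.

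The libraries held 15826923 to 18861603 reads on genes, with 11.2 to 14.3% of reads outside annotated features, and replicates were more alike (lowest r = 0.994 across genes) than any libraries of different groups (highest r = 0.986). CDKN1A was at 77.3 to 119 CPM (counts per 1000000 reads, after TMM scaling of the library sizes) in the untreated libraries and at 429 to 975 CPM in the TMZ libraries, and thus followed the labels. BIRC5 transcripts, which include those of the fusion, lay at 1113 to 2029 CPM in Surv-GFP and at 253 to 414 CPM in SurvNESmut-GFP. Upon TMZ, their mean rose from 1133 to 1984 CPM in Surv-GFP (log2 0.81). It fell from 410.7 to 257.5 CPM in SurvNESmut-GFP (−0.67). The level in SurvNESmut-GFP was thus 2.76-fold lower without and 7.70-fold lower with TMZ. Its part in the cyclin results was not tested. Of 8 glioblastoma line markers, 7 were above 1 CPM in every group, while GFAP stayed below 1 CPM in all libraries. Levels of these markers differed between the untreated clones. S100B was at 777 CPM in Surv-GFP and at 40.6 CPM in SurvNESmut-GFP (log2 −4.26). OLIG2 (−2.29), SOX2 (−1.40) and VIM (−0.32) were also lower in SurvNESmut-GFP. The gene NES (0.39) and CD44 (0.19) were higher, and EGFR did not pass (0.14). Endothelial markers summed to at most 1.08 CPM. Of 4 immune markers, PTPRC, CD3E and CD14 were at or near 0, whereas CD68, a lysosomal protein of macrophages that other cells also express, was at 11.9 to 21.4 CPM and rose upon TMZ in both clones (log2 0.59, adjusted p = 0.00011, and 0.40, adjusted p = 0.0044). The 5 fibroblast markers summed to 44.3 to 74.2 CPM in the Surv-GFP libraries and to 365 to 596 CPM in the SurvNESmut-GFP libraries, most of it COL1A2, with means of 3.09 and 498 CPM in the untreated clones. COL1A1 (log2 2.75) and DCN (1.24) were also higher in untreated SurvNESmut-GFP, LUM was lower (−0.66, adjusted p = 1.3e-05) and PDGFRB did not pass (0.19, adjusted p = 0.22). Of 5 epithelial markers, EPCAM, CDH1 and KRT19 were at or near 0, and the list, nearly all of it KRT8 and KRT18, summed to 141 to 157 CPM without and 206 to 312 CPM with TMZ. These lists move with the clone and with TMZ, and their part in the cyclin results was not tested.

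Counting reads per kilobase of exon, so that genes can be set beside each other, CCND1 was the most abundant of the 10 in every group. In untreated Surv-GFP, it stood at 79.0 CPM per kb, followed by CCNB1 at 70.4, CCNA2 at 37.8, CCNB2 at 27.4, CDK1 at 26.4, CDK2 at 23.8, CCND3 at 9.72, CCNE2 at 7.86 and CCNE1 at 5.21. CCNB2 and CDK1 overlapped between libraries and the other neighbours did not. The lengths include bases shared with other genes, for CCNE2 1629 of 4397 with INTS8. The place of CCNE2 below CCND3 may depend on this choice, and an order without shared bases was not worked out. The order of untreated SurvNESmut-GFP was the same, but with CCND1 at 299 CPM per kb, far above CCNB1 at 96.8. Upon TMZ, the order changed below CCND1. In Surv-GFP, CDK2 at 19.6 CPM per kb overlapped with CCNB1 at 20.3 and stood ahead of CDK1 at 15.3, while CCNA2 at 12.6 and CCNB2 at 12.3 overlapped with each other. In TMZ-exposed SurvNESmut-GFP, CCNB1 and CCNA2 were both at 33.6, CDK1 was at 28.2, and CDK2 at 23.4 overlapped with CCNB2 at 21.1.

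**Figure D1:**
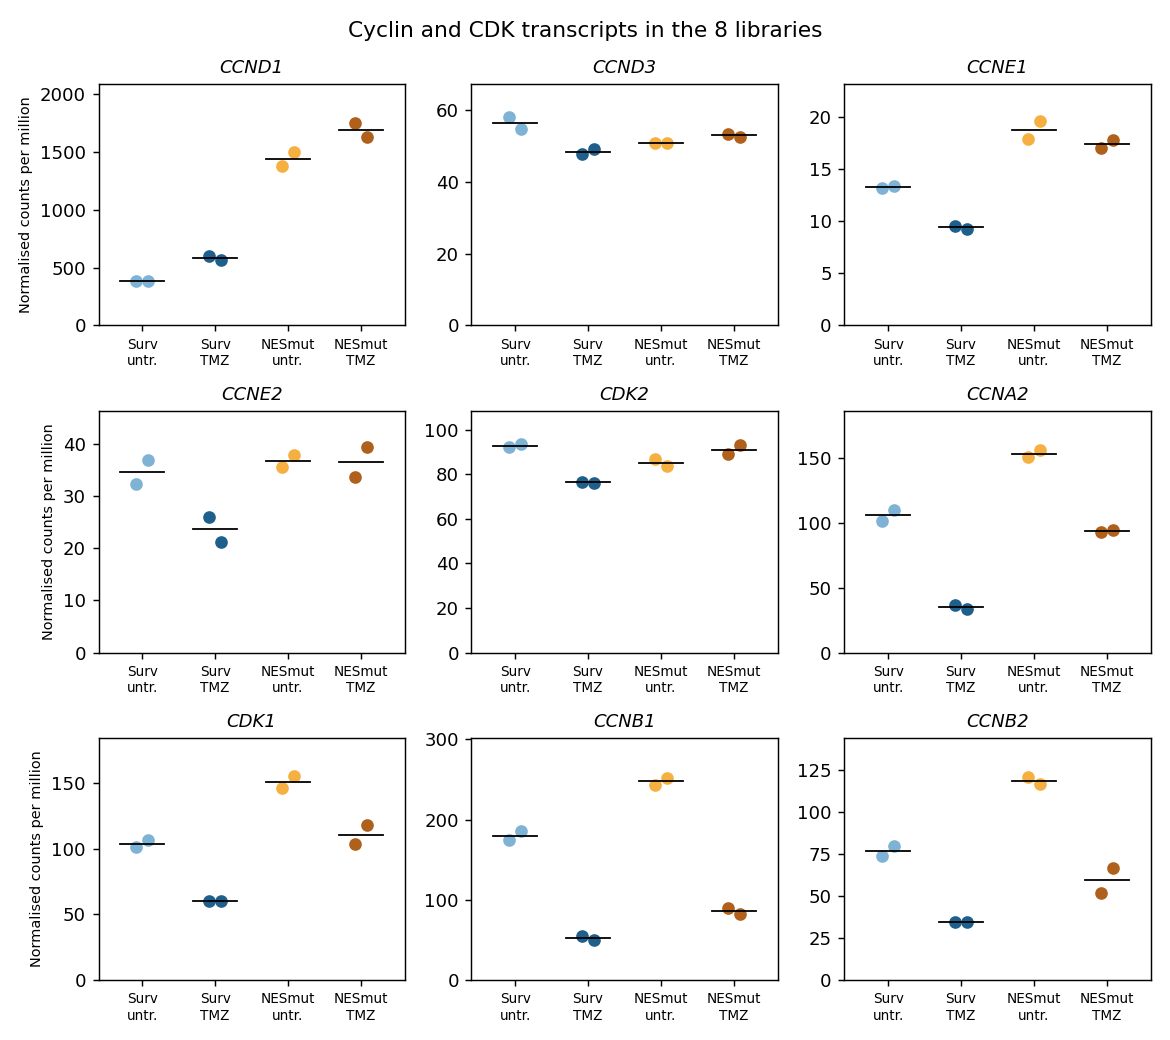
Normalised CPM (y axis, from 0, a scale per gene) of the 9 expressed cyclin and CDK genes in the 4 groups (x axis; Surv, Surv-GFP; NESmut, SurvNESmut-GFP; untr., untreated). Each point is 1 library and each bar the mean of 2. CCNA2, CCNB1, CCNB2 and CDK1 are lower with TMZ in both clones, and CCND1 is higher in SurvNESmut-GFP with and without TMZ.

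CCND2, the third D-type cyclin, was not detectable. It had 1 read in all 8 libraries together, in Surv-GFP TMZ replicate a (95% Poisson interval 0.0253 to 5.57 reads, counting error only). A count of 0 allows up to 3 reads, or 0.160 to 0.189 CPM depending on the library. It failed the filter on low counts, and the tests below cover the other 9 genes.

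The first question was how TMZ changes these genes in the Surv-GFP clone. The study reports that the Surv-GFP protein accumulated in the nucleus upon TMZ, so the exposed cells are not called cytoplasmic here. Where the protein lay in the sequenced cells was not tested. In Surv-GFP, all 9 tested genes changed upon TMZ, 8 of them downwards and CCND1 upwards. Among all 14201 tested genes, 28.9% were called lower and 30.1% higher in this comparison (edgeR's quasi-likelihood test, adjusted p under 0.05), and the median log2 fold change of the 9 was −0.55 against 0 for all tested genes. In SurvNESmut-GFP, with 19.1% of genes called lower and 18.6% higher, 4 of the 9 fell, CCND1 rose, and CCND3, CCNE1, CCNE2 and CDK2 did not pass the test. The median of the 9 was −0.11, against 0.0035 for all tested genes. The genes that fell in both clones were CCNA2, CCNB1, CCNB2 and CDK1, those of the S, G2 and M phases.

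Cyclin B1, whose complex with CDK1 triggers entry into mitosis, showed the deepest fall of the 9 in both clones. CCNB1 was at 174 and 186 CPM in untreated Surv-GFP and at 54.5 and 49.4 CPM upon TMZ, and at 243 and 252 CPM in untreated SurvNESmut-GFP and 89.6 and 82.4 CPM upon TMZ. No TMZ library of either clone reached the untreated libraries. The log2 fold change was −1.79 ± 0.062 (SE; adjusted p = 6.4e-13) in Surv-GFP, which left 28.9% of the untreated level, and −1.53 ± 0.059 (adjusted p = 1.4e-11) in SurvNESmut-GFP, which left 34.7%.

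Cyclin B2, the partner of CDK1 found mainly at the Golgi, also fell in both clones. CCNB2 was at 73.6 and 79.8 CPM in untreated Surv-GFP against 34.2 and 34.4 CPM upon TMZ, and at 121 and 116 CPM in untreated SurvNESmut-GFP against 51.7 and 66.6 CPM upon TMZ. The TMZ-exposed SurvNESmut-GFP libraries lay further apart than those of any other group. The log2 fold changes were −1.16 ± 0.089 (adjusted p = 1.1e-08) and −1.01 ± 0.082 (adjusted p = 8.0e-08).

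Cyclin A2, needed for DNA replication and for progress through G2, behaved differently in the 2 clones. CCNA2 was at 102 and 110 CPM in untreated Surv-GFP and at 36.5 and 33.8 CPM upon TMZ. In SurvNESmut-GFP, it was at 151 and 156 CPM without and at 93.1 and 94.7 CPM with TMZ, so that its TMZ-exposed libraries lay just below those of untreated Surv-GFP. The fall was −1.59 ± 0.061 on the log2 scale (adjusted p = 2.0e-12) in Surv-GFP and −0.71 ± 0.054 (adjusted p = 4.1e-08) in SurvNESmut-GFP, which left 33.3% and 61.3% of the untreated levels. Exons of CCNA2 share 254 of 2798 bases with EXOSC9 on the other strand, a gene whose value in Surv-GFP was −0.03 (adjusted p = 0.76).

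CDK1, the kinase of mitotic entry, fell less than its cyclins. Its transcript was at 101 and 107 CPM in untreated Surv-GFP and at 59.9 and 60.1 CPM upon TMZ, and at 146 and 156 CPM in untreated SurvNESmut-GFP and 103 and 118 CPM upon TMZ. The log2 fold changes were −0.79 ± 0.065 (adjusted p = 2.4e-08) and −0.45 ± 0.061 (adjusted p = 2.3e-05). For CCNA2, CCNB1, CCNB2 and CDK1, no alternative setting and no left-out library ended a call upon TMZ in either clone.

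The start regions of these 4 genes are shown because all fell upon TMZ in both clones, though not to the same extent. In addition, p53-dependent repression of such genes is known to run through a cell cycle homology region (CHR), bound by DREAM. A CHR often lies beside CCAAT boxes bound by NF-Y. RefSeq promoter windows (GRCh38.p14; 250 bases before and 50 after each annotated start) were at hand for 6 of the 10 genes, CCNA2, CCNB1, CCNB2, CCND3, CCNE1 and CDK1, with 9 windows in all, and not for CCND1, CCND2, CCNE2 and CDK2. Each stretch below has 30 bases, 5′ to 3′ on the gene's strand, with the match in capitals. The last is of CCNE1, which fell in Surv-GFP and did not pass the test in SurvNESmut-GFP.
CCNA2: agtcgcgggataCTTGAActgcaagaacag
CCNB1: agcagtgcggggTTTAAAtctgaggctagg
CCNB2: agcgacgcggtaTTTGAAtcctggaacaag
CDK1: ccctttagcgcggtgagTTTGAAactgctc
CCNE1: gcgcgcagggatTTTAAAtgtcccgctctg

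The stretches lie at chr4:121823894-121823923 (minus strand) for CCNA2, chr5:69167108-69167137 (plus) for CCNB1, chr15:59105105-59105134 (plus) for CCNB2, chr10:60778448-60778477 (plus) for CDK1 and chr19:29811951-29811980 (plus) for CCNE1, all upstream of the annotated start used. The capitals begin at position −28 from the start in CCNA2, −30 in CCNB1, −29 in CCNB2, −13 from the second annotated start of CDK1, and −28 in CCNE1. Further matches that are not printed began at −87 in CCNA2 (CTTGAA) and −193 in CCNB2 (TTTAAA). In CDK1, they began at −69 and 10 from the second start (TTTGAA) and at −161 (TTTGAA) and −131 (TTTAAA) from the first. The canonical CHR letters TTTGAA, or TTCGAA, searched on both strands, were in the windows of CCNB2 and CDK1 and in 16.4% of the 35116 windows of the table. The variants CTTGAA and TTTAAA, the latter of which reads the same on both strands, were added after the sequences had been seen. These were in the windows of CCNA2, CCNB1, CCNB2, CCNE1 and the first start of CDK1, and in 21.3% of all windows. A CCAAT box, on either strand, was present in CCNA2 (begins at −56), CCNB1 (−87 and −55), CCNB2 (4 boxes, the nearest at −54), both overlapping CDK1 windows (−46 for the second start) and 2 of the 3 CCND3 windows, but not in CCNE1, against 34.6% of all windows. Of the E2F letters TTTCCCGC, TTTGGCGC, TTTCGCGC and TTTGCCGC, found in 3.31% of all windows, TTTCGCGC was in CDK1, at −128 from its second start. Matches are descriptions of letters and not of binding in these cells.

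In the D class, the 2 expressed genes moved apart. Cyclin D1, the G1 cyclin that sequesters p21 and p27 and activates CDK4 and CDK6, was the only member of the 9 that rose upon TMZ. CCND1 was at 382 and 381 CPM in untreated Surv-GFP and at 604 and 565 CPM upon TMZ, a 1.53-fold rise (log2 0.62 ± 0.053, adjusted p = 4.8e-08). In SurvNESmut-GFP, it was at 1383 and 1503 CPM without and at 1752 and 1634 CPM with TMZ, a 1.17-fold rise (log2 0.23 ± 0.052, adjusted p = 0.0023). Groups did not overlap in either clone, but without replicate a of untreated SurvNESmut-GFP the latter value was 0.17 (adjusted p = 0.054). Exons of CCND1 share 497 bases with LTO1 (ORAOV1) on the other strand, whose mean level was 20.01 CPM.

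Cyclin D3, a partner of the same kinases, was far less abundant and changed little. CCND3 was at 58.0 and 54.8 CPM in untreated Surv-GFP and at 47.6 and 49.0 CPM upon TMZ, and all SurvNESmut-GFP libraries were between 50.7 and 53.1 CPM. The fall in Surv-GFP was 0.22 on the log2 scale in size (−0.22 ± 0.058, adjusted p = 0.0034), and without replicate a of untreated Surv-GFP it was −0.18 (adjusted p = 0.056). In SurvNESmut-GFP, the value was 0.06 ± 0.059 (adjusted p = 0.47, 95% interval −0.07 to 0.18).

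The E-type cyclins, which activate CDK2 at the G1/S transition, fell in Surv-GFP. CCNE1 was at 13.2 and 13.4 CPM without and at 9.57 and 9.30 CPM with TMZ (log2 −0.49 ± 0.11, adjusted p = 0.00074). CCNE2 was at 32.2 and 36.9 CPM without and at 26.0 and 21.2 CPM with TMZ (log2 −0.55 ± 0.10, adjusted p = 0.00023). In SurvNESmut-GFP, the corresponding values were 17.9 and 19.7 against 17.1 and 17.8 CPM for CCNE1 (log2 −0.11, 95% interval −0.30 to 0.09, adjusted p = 0.38). For CCNE2, they were 35.5 and 37.9 against 33.6 and 39.3 CPM (log2 −0.01, 95% interval −0.22 to 0.20, adjusted p = 0.94). Of the 4397 exonic bases of CCNE2, 1629 also belong to INTS8 on the other strand, and since the labels do not state a strand-specific kit, reads there may have been assigned to either gene or dropped. INTS8 had a log2 fold change of −0.19 (adjusted p = 0.0082) in Surv-GFP and −0.07 (adjusted p = 0.35) in SurvNESmut-GFP.

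CDK2, the kinase shared by cyclins E and A, fell slightly in Surv-GFP, from 92.1 and 93.4 CPM to 76.5 and 76.1 CPM (log2 −0.28 ± 0.051, adjusted p = 0.00015). In SurvNESmut-GFP, it was at 86.6 and 83.5 CPM without and at 89.0 and 93.0 CPM with TMZ (log2 0.10 ± 0.051, 95% interval −0.01 to 0.20, adjusted p = 0.15). Its exons overlap those of AC025162.1 by 565 of 3894 bases and of PMEL (mean level 1.75 CPM) by 89 bases, both on the other strand.

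**Figure D2:**
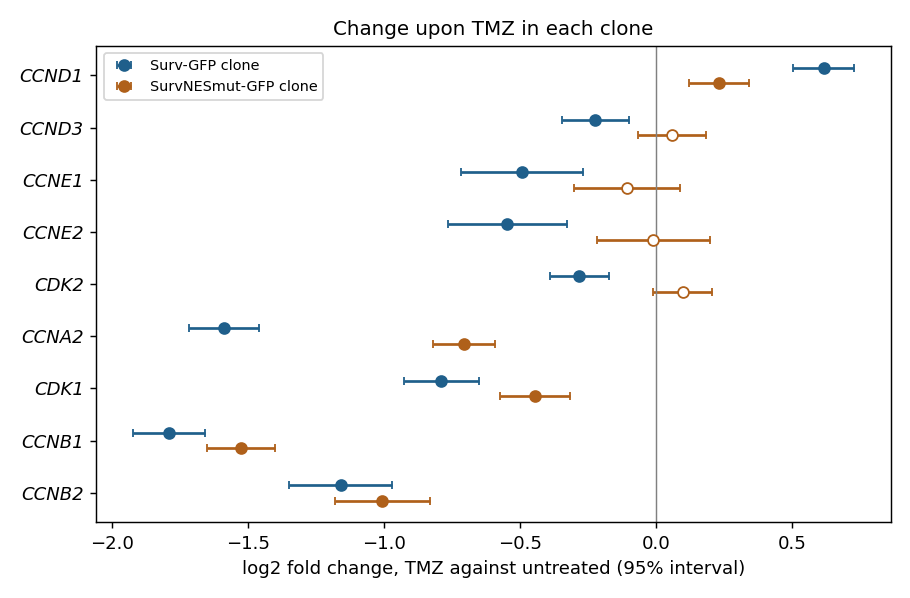
log2 fold change of each of the 9 genes upon TMZ (x axis) in Surv-GFP (blue) and SurvNESmut-GFP (brown), with 95% intervals as bars. Filled points passed the test at an adjusted p under 0.05 and open points did not. The blue points of the 8 falling genes all lie left of the brown ones, from −1.79 against −1.53 for CCNB1 to −0.22 against 0.06 for CCND3.

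Whether the TMZ effect depended on the clone was tested by the difference of the effects (SurvNESmut-GFP minus Surv-GFP). It passed for 8 of the 9 genes, 7 with a higher value in SurvNESmut-GFP and 1, CCND1, with a lower value, where 16.6% and 20.2% of all tested genes were called higher and lower. The median difference of the 9 was 0.34, and −0.0010 for all tested genes. CCNA2 had the largest difference, 0.88 ± 0.082 (adjusted p = 5.0e-07), followed by CCNE2 with 0.54 ± 0.14 (adjusted p = 0.0073). CCND1 differed by −0.38 ± 0.075 (adjusted p = 0.00073), CDK2 by 0.38 ± 0.072 (adjusted p = 6.0e-04) and CDK1 by 0.34 ± 0.089 (adjusted p = 0.0061). CCNA2, CCND1, CDK1 and CDK2 kept this call under every setting tried.

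The differences of CCNE1 (0.39 ± 0.14, adjusted p = 0.041), CCND3 (0.28 ± 0.082, adjusted p = 0.013) and CCNB1 (0.27 ± 0.086, adjusted p = 0.023) depended on single libraries. That of CCNE1 did not pass when each of 6 libraries was left out in turn, namely Surv-GFP untreated a or b, Surv-GFP TMZ a or b, SurvNESmut-GFP untreated a and SurvNESmut-GFP TMZ b (0.32 to 0.41, adjusted p = 0.076 to 0.14). That of CCNB1 did not pass without Surv-GFP untreated b, Surv-GFP TMZ b, SurvNESmut-GFP untreated a or SurvNESmut-GFP TMZ a (0.20 to 0.24, adjusted p = 0.065 to 0.11). CCND3 lost its call without Surv-GFP untreated a (0.24, adjusted p = 0.079) or TMZ a (0.26, adjusted p = 0.055), and CCNE2 without Surv-GFP untreated b (0.43, adjusted p = 0.052). In this last setting, 5 genes in place of 8 were called. CCNB2 showed no difference past the threshold (0.15, 95% interval −0.10 to 0.41, adjusted p = 0.35), but did without SurvNESmut-GFP TMZ a (0.32, adjusted p = 0.0047).

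Ratios of read counts within a library do not depend on scaling. They are not corrected for length, so that a ratio is compared between libraries and not between genes. The CCNA2/CDK1 ratio of untreated cells was nearly the same in both clones, at 1.004 and 1.034 in Surv-GFP and at 1.031 and 1.001 in SurvNESmut-GFP. Upon TMZ, the ratio was 0.61 and 0.56 in Surv-GFP and 0.90 and 0.80 in SurvNESmut-GFP, so that the clones no longer overlapped. The CCNB1/CDK1 ratio was at 1.72 and 1.75 in untreated Surv-GFP and at 1.66 and 1.62 in untreated SurvNESmut-GFP. It was at 0.91 and 0.82 and at 0.87 and 0.70 upon TMZ, and here the TMZ-exposed clones did overlap. The CCND1/CCND3 ratio was 6.59 and 6.96 in untreated Surv-GFP and 12.7 and 11.5 upon TMZ, and 27.2 and 29.7 without and 33.0 and 31.1 with TMZ in SurvNESmut-GFP. The CCNE2/CCNE1 ratio, 2.28 to 2.76 in Surv-GFP and 1.93 to 2.21 in SurvNESmut-GFP, had overlapping values with and without TMZ in each clone.

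**Figure D3:**
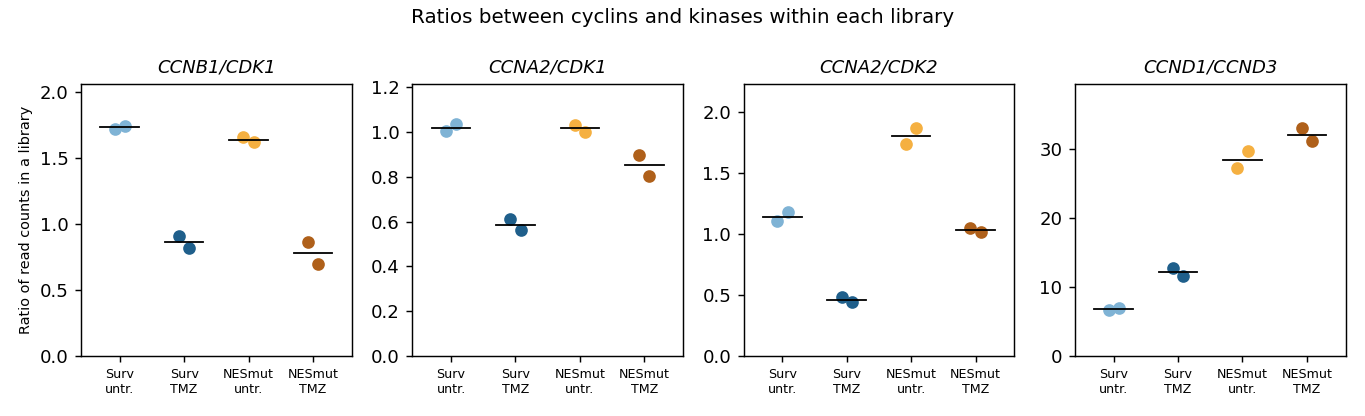
Ratio of read counts between 2 genes of the same library (y axis, from 0) in the 4 groups (x axis, as in the plot of levels). Points are libraries and bars means of 2. CCNB1/CDK1 lies at 1.62 to 1.75 without and at 0.70 to 0.91 with TMZ over both clones, whereas CCNA2/CDK1 stays higher in TMZ-exposed SurvNESmut-GFP (0.80 and 0.90) than in TMZ-exposed Surv-GFP (0.56 and 0.61).

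The clones were also compared at the same treatment. These comparisons share libraries with those above, so that they restate the same values from another side. Among untreated cells, 6 of the 9 genes were higher in SurvNESmut-GFP and 2 were lower (34.7% and 29.4% of all tested genes; median of the 9 0.50, of all tested genes 0.034). CCND1 had a 3.78-fold higher level in SurvNESmut-GFP (log2 1.92 ± 0.054, adjusted p = 3.5e-14). CCNA2, CCNB1, CCNB2, CCNE1 and CDK1 were higher by 0.46 to 0.63 on the log2 scale, with adjusted p-values of at most 2.0e-04. CCNE2 gave 0.09 (95% interval −0.12 to 0.29, adjusted p = 0.45). CCND3 (−0.15, adjusted p = 0.030) and CDK2 (−0.12, adjusted p = 0.039) were slightly lower. Their calls were lost by DESeq2 (adjusted p = 0.094 and 0.087), without each of the 4 untreated libraries in turn for CDK2 (−0.10 to −0.15, adjusted p = 0.060 to 0.22), and without Surv-GFP untreated a or either untreated SurvNESmut-GFP library for CCND3 (−0.11 to −0.15, adjusted p = 0.097 to 0.23).

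Among TMZ-exposed cells, 8 of the 9 genes were called higher in SurvNESmut-GFP and all 9 values were positive (34.5% and 34.7% of all tested genes were called higher and lower; median of the 9 0.78, of all tested genes −0.00053). CCND1 was 2.90-fold higher (log2 1.53 ± 0.054, adjusted p = 5.2e-13) and CCNA2 2.67-fold (log2 1.42 ± 0.062, adjusted p = 7.5e-12). CCNE1, CDK1, CCNB2, CCNB1 and CCNE2 were higher by 0.62 to 0.89 on the log2 scale and CDK2 by 0.25 (adjusted p = 0.00033). CCND3 did not pass (0.13, 95% interval 0.01 to 0.26, adjusted p = 0.060).

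Genes that act with, on or for these cyclins were then described from 5 lists. Of all tested genes, 28.9% fell and 30.1% rose in Surv-GFP, and 19.1% and 18.6% in SurvNESmut-GFP. For the difference, 16.6% were called higher and 20.2% lower. Of the other cyclins, 17 of 20 were tested. Upon TMZ, 4 fell (23.5%) and 8 rose (47.1%) in Surv-GFP, and 6 fell (35.3%) and 4 rose (23.5%) in SurvNESmut-GFP. Cyclin F (CCNF), the protein after which the F-box was named, fell by 1.63 ± 0.068 on the log2 scale in Surv-GFP and by 0.98 ± 0.060 in SurvNESmut-GFP, a difference of 0.65 (adjusted p = 3.9e-05). Cyclin G2 (CCNG2), linked to growth arrest, fell in both clones (−0.95 and −1.07). CCNJL rose in both clones (0.68 in Surv-GFP and 0.34 in SurvNESmut-GFP), as did CCNO (0.32 and 0.48) and CCNL2, a splicing-related cyclin (0.31 and 0.36). CCNYL1 rose in Surv-GFP (0.39) and did not pass in SurvNESmut-GFP (−0.15, adjusted p = 0.15). CCNA1, the germline A-type cyclin, had no reads. The difference of the TMZ effects was called for 1 gene upwards (CCNF) and 5 downwards, with CCNYL1 (−0.54) and CCNT1 (−0.45), the cyclin of the elongation kinase CDK9, lowest.

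Of the other CDKs, 17 of 19 were tested, with shares called near those of all tested genes. There were 4 falls (23.5%) and 6 rises (35.3%) in Surv-GFP and 3 falls (17.6%) and 2 rises (11.8%) in SurvNESmut-GFP. CDK19, a Mediator kinase, fell in both (−0.92 and −0.54), with a difference of 0.38 (adjusted p = 0.017). CDK18 (−0.37) fell and CDK20 (0.97) and CDK13 (0.45) rose in Surv-GFP, while in SurvNESmut-GFP they gave −0.19, −0.09 and 0.02 and did not pass. The difference passed for CDK20 and CDK13 and not for CDK18 (0.18, adjusted p = 0.34). CDK16 rose in Surv-GFP (0.38) and fell in SurvNESmut-GFP (−0.21), where the G1 kinases CDK6 (0.35 ± 0.058, adjusted p = 0.00016) and CDK4 (0.21 ± 0.048, adjusted p = 0.0025) rose. In Surv-GFP, these kinases of the D-type cyclins did not pass (0.08 and 0.07, both adjusted p = 0.24). The difference of the effects passed for CDK6 (0.27, adjusted p = 0.017) and not for CDK4 (0.14, adjusted p = 0.11), and was lowest for CDK20 (−1.06) and CDK16 (−0.59). In all, 2 genes of this list were called higher and 5 lower for the difference.

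Of 15 direct regulators of cyclin-CDK complexes, 12 were tested. There were 5 falls (41.7%) and 4 rises (33.3%) in Surv-GFP and 6 (50%) and 3 (25%) in SurvNESmut-GFP. CDKN1A (p21), which inhibits cyclin-CDK2 complexes, rose by 3.52 ± 0.073 on the log2 scale in Surv-GFP and by 1.96 ± 0.069 in SurvNESmut-GFP, and this difference of −1.56 ± 0.096 (adjusted p = 5.1e-09) was the lowest of the list. CDKN1C (p57) fell in Surv-GFP (−2.05 ± 0.18) and gave −0.82 (adjusted p = 0.083) in SurvNESmut-GFP, and CDC25C, the phosphatase that activates CDK1, fell in both (−1.29 and −0.95). The CDK-binding subunit CKS2 fell in both (−0.79 and −0.88; difference −0.09, adjusted p = 0.52), and CKS1B rose in Surv-GFP (0.45) and gave 0.05 (adjusted p = 0.60) in SurvNESmut-GFP. PKMYT1, which phosphorylates and inhibits CDK1, rose in both (0.32 and 0.29; difference −0.03, adjusted p = 0.85). For the difference, 1 gene was called higher, CDKN1C (1.23, adjusted p = 0.033), and 5 lower, among them CDKN1B (p27) at −0.73 (adjusted p = 2.3e-05).

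The 24 genes of the retinoblastoma, E2F, DREAM, MYB-MuvB and NF-Y proteins that control cyclin genes were all tested. Of these, 14 fell (58.3%) and 6 rose (25%) in Surv-GFP, and 4 fell (16.7%) and 3 rose (12.5%) in SurvNESmut-GFP. E2F7, a repressive E2F induced by p53, rose in both clones (1.44 ± 0.065 and 0.64 ± 0.060; difference −0.80, adjusted p = 3.3e-06). RBL2 (p130), the pocket protein of DREAM, fell in both (−0.65 and −0.39). LIN37 of the same complex rose in Surv-GFP (1.22), where TFDP2, a partner of E2F proteins, fell (−0.62), and in SurvNESmut-GFP they gave 0.32 (adjusted p = 0.079) and −0.06 (adjusted p = 0.56). RBBP4 fell in both (−0.45 and −0.28; difference 0.17, adjusted p = 0.067), and MYBL1 fell in Surv-GFP (−0.31) and rose in SurvNESmut-GFP (0.37). The differences of this list were called higher for 8 genes, led by MYBL1 (0.68) and TFDP1 (0.57), and lower for 6, with LIN37 (−0.90) lowest.

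Of 22 genes that carry out or control the degradation of cyclins, all tested, 12 fell (54.5%) and 2 rose (9.09%) in Surv-GFP. In SurvNESmut-GFP, 9 fell (40.9%) and 3 rose (13.6%). CDC20, the activator of the anaphase-promoting complex that destroys cyclin B1, fell in both (−1.54 ± 0.057 and −1.17 ± 0.054). SKP2, the F-box protein that targets p27, fell in Surv-GFP (−1.06 ± 0.074), was at 0.04 (adjusted p = 0.67) in SurvNESmut-GFP, and had the highest difference of the list (1.103, adjusted p = 4.3e-07), followed by ANAPC5 (0.63). UBE2S, an E2 enzyme of the complex, fell in both (−0.47 and −0.88). FBXW7, which targets cyclin E, rose in both (0.64 and 0.56), as did CDC16 (0.29 and 0.17). The difference was called higher for 5 genes and lower for 2, UBE2S (−0.41) and FZR1 (−0.31). Genes of the 5 lists were chosen with results of these libraries known, and the counts stand beside the shares of all tested genes given above.

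**Figure D4:**
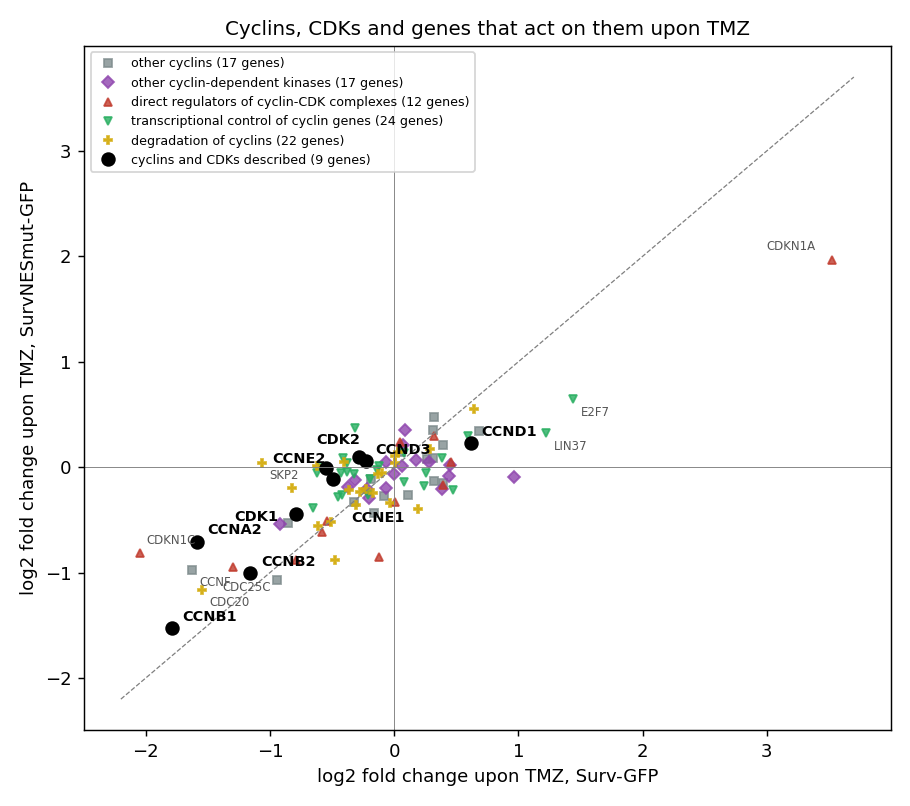
log2 fold change upon TMZ in Surv-GFP (x axis) against SurvNESmut-GFP (y axis) for the 9 cyclins and CDKs (black) and the tested genes of the 5 lists (coloured). The dashed line marks equal change in both clones. CCNA2 (−1.59 and −0.71) lies further above the line than CCNB1 (−1.79 and −1.53), and CDKN1A (3.52 and 1.96) lies far below it.

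The genes whose centred log2 CPM over the 8 libraries lay nearest to each of the 5 genes that varied by at least 1 log2 unit between group means were sought among all tested genes with a mean of at least 1 CPM. Nearest to CCNB1 (group means spanning 2.25 log2 units) were H1FX-AS1, an antisense transcript whose reads cannot be told from its partner's without strand (root mean square difference 0.041), CENPA, the centromeric histone (0.078), and CENPE, a kinetochore motor (0.14). Nearest to CCNB2 (1.78) were CDC25C (0.080), HMGB3 (0.10) and the spindle protein gene KNSTRN (0.10). Nearest to CDK1 (1.33) were KIF15, a mitotic kinesin (0.059), C1GALT1C1 (0.062) and TMPO (0.062). For CCNA2 (2.12), they were CBR3, a carbonyl reductase (0.096), MT1E, a metallothionein with near-identical paralogs (0.12), and BUB1B of the spindle checkpoint (0.13). For CCND1 (2.15), they were ASCC3 (0.055), SYNJ2 (0.073) and TTC7A (0.092).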

How the data were processed

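RNA from 8 libraries of 2 LN229 clones, with and without TMZ, had been sequenced on the Illumina platform. The authors deposited whole-number read counts per gene. The submitters' processing notes name STAR 2.5.0b, Cufflinks 2.2.1 and edgeR, whereas the build and the strand setting of the counting were not stated in the sources used. The deposited table also has 2 rows that name no gene, reads without a feature (11.2 to 14.3% of a library) and ambiguous reads (1.19 to 1.28%), which were left out. The 5 deposited comparison tables hold the authors' own fold changes and p-values and were not used. Groups were taken from the labels.

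Genes passing filterByExpr (14201 of 26364) were scaled by TMM and fitted in edgeR 4.0.16 (R 4.3.3, limma 3.58.1). The model had 4 group means over all libraries and used the quasi-likelihood F test, which the study's methods also name. For TMZ within each clone and between clones, the study reports few significant hits and a relaxed threshold. Here, 30.1% of tested genes were called higher and 28.9% lower upon TMZ in Surv-GFP. The source of this gap was not tested. P-values were adjusted over all tested genes by Benjamini-Hochberg, with a threshold of 0.05. SE and 95% intervals come from this fit. The scripts were tested on simulated data. The alternatives were DESeq2 1.42.0, its size factors, library size alone, no filter on low counts, the newer quasi-likelihood method of edgeR, the replicate letter as a block, a fit on just the groups being compared, and leaving out every library in turn. All 10 genes were named, and from each list the largest 2 rises and 2 falls among called genes. The genes and lists were chosen with earlier results of these data known. Gene lengths are unions of GENCODE 29 exons (GRCh38), and promoter sequences are from RefSeq.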

Additional observations from a re-analysis of the deposited data

Results flagged for a closer look

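The change upon TMZ differed between the clones for 8 of the 9 tested cyclins and CDKs, by the test of the difference itself (log2, SurvNESmut-GFP minus Surv-GFP). The values were 0.88 for CCNA2, 0.54 for CCNE2, 0.39 for CCNE1, 0.38 for CDK2, 0.34 for CDK1, 0.28 for CCND3, 0.27 for CCNB1 and −0.38 for CCND1. Differences of CCNA2, CCND1, CDK1 and CDK2 held under each setting tried, and those of CCNE1, CCNE2, CCND3 and CCNB1 did not pass without at least 1 library named above. Since each Survivin form is 1 clone, the NES mutation and the clone cannot be told apart here.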

How the results depend on the processing

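Of 666 values of the 9 genes under the alternatives, 638 kept their side of the threshold, 27 lost a call and 1 gained a call. Among values called in either fit, 0 changed sign. Changes of sign between values that did not pass were not counted. With 1 library left out, the genes called numbered 8 to 9 for TMZ in Surv-GFP, 4 to 5 for TMZ in SurvNESmut-GFP, 5 to 8 for the difference of the TMZ effects, 6 to 8 between the untreated clones and 8 to 8 between the TMZ-exposed clones. The lowest count for the difference, 5, came without Surv-GFP untreated replicate b. DESeq2 called 6 genes for the difference, with CCNE1 (adjusted p = 0.18) and CCND3 (0.069) lost, and 6 between the untreated clones. The other scaling and filter settings changed no call, and the cause of the lost calls was not tested.

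Libraries of the same letter did not deviate together: differences between a and b correlated by −0.067 to 0.083 between groups. This cannot tell whether the libraries were prepared in pairs, which the labels do not state. With the replicate letter as a block, 9, 5, 8, 7 and 8 genes were called for TMZ in Surv-GFP, TMZ in SurvNESmut-GFP, the difference, the untreated clones and the TMZ-exposed clones, and the value that lost its call was CDK2 between the untreated clones (−0.12, adjusted p = 0.054). CCNE1, with 341 to 486 reads per group in Surv-GFP, had the widest SE of the 9 genes for TMZ in this clone (0.11).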
